A study of Mus musculus with 49 samples.

Results

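Expression of 9 homeostatic microglia genes (P2ry12, Tmem119, Cx3cr1, Fcrls, Itgam, Csf1r, Siglech, Selplg and Aif1) was followed across 49 RNA-seq libraries of mouse frontal cortex. The genes were taken by name as markers of resting microglia and not by a rule on their values, but earlier results of these data were known. They are 9 of the 24488 genes analysed. WT mice were fed a high fat diet over 2 months (9 libraries) or over 4 months (10). Libraries labelled AKO (10) come from mice described as amylin knockouts after 4 months of diet. Mice with a conditional human amylin transgene were also fed for 4 months and were given vehicle (VE, 10 libraries) or tamoxifen (TM, 10 libraries), with collection 2 months after the injection. All 5 groups therefore received the high fat diet, and no group on a normal diet was analysed here. The promoter of the transgene or of any Cre, the strain, sex and age of the mice and any batch were not given in the sources used here, so time on the diet and age cannot be told apart. The title numbers name separate libraries but do not say which animal or batch a number stands for, and p-values measure only the spread between these libraries.

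Microglia are the resident macrophages of the brain. In the healthy cortex they keep a surveying state that rests on colony-stimulating factor and TGF-beta signals. The genes followed here are used as markers of microglia, and all but Aif1 encode receptors or other surface proteins. When microglia turn to a disease-associated state, several of these genes are known to fall while genes such as Apoe, Axl and Clec7a rise. In bulk tissue, fewer cells of a type and less RNA per cell cannot be told apart.

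All 9 genes were well measured. Levels are given as log2(normalised reads + 1), in which normalised reads are reads divided by the size factor of the library. Recovered depth ran from 29.2 to 75.6 M reads per library (median 42.0 M), and the genes had from 130 reads in their lowest library (Aif1) to 7239 in their highest (Csf1r). Iapp, the mouse amylin gene, had 36 to 116 reads in each of the libraries labelled AKO, 1 read in the VE group and 0 in the other groups. These counts do not show the loss that the label describes. With 0 reads in WT a loss could not be seen, and where the reads lie in the gene was not examined. These libraries are therefore named by their label throughout. Among 12 neutrophil and monocyte markers Ly6g was at 0 in 40 libraries, while S100a9 had 1 to 221 reads, Ngp 0 to 172 and Csf3r 95 to 456. Of the lymphocyte markers Cd3d was at 0 in 29 libraries, and Cd4 had 2 to 945 reads. The 12 markers of border-associated macrophages ran from Folr2 (0 to 38 reads) and Pf4 (5 to 57) through Mrc1 (101 to 414) to Stab1 (364 to 1314) and Cbr2 (9 to 3527).

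The stretch upstream of the start site is shown for P2ry12 and Itgam, as these genes rose in WT mice between 2 and 4 months and their RefSeq windows of 250 bases (GRCm38.p6) hold no annotated exon of the gene. The window of P2ry12 is chr3:59262986-59263235 on the minus strand and that of Itgam is chr7:128062390-128062639 on the plus strand. Both are written 5′ to 3′, with capitals for GAGGAA or its reverse complement TTCCTC, the core bound by PU.1 (Spi1), the lineage factor of macrophages.
P2ry12: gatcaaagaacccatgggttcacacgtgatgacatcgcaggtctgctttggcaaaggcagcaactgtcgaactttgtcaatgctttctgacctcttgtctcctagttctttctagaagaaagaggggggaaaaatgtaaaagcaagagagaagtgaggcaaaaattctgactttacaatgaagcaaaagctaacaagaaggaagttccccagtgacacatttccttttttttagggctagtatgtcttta
Itgam: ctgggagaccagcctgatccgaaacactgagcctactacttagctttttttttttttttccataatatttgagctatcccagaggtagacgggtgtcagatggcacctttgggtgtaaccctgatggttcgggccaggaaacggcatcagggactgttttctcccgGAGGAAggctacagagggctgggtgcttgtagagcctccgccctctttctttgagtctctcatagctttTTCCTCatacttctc
The core occurred 2 times in the Itgam window and 0 times in that of P2ry12. RefSeq windows were examined for 6 of the 9 genes, not for Tmem119, Selplg and Csf1r. Those of Fcrls and Aif1 held 1 match each, while those of Cx3cr1 and Siglech held 0. On either strand, the core was in 7639 of 32851 mouse windows of the same length (23.25%). A match is a description of the letters, and 0 matches says only that these letters are not in the window.

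Per kb of annotated exon, Csf1r was the most abundant of the 9 genes, with 705.4 ± 50.2 normalised reads per kb (SD, n = 49), followed by P2ry12 (610.9 ± 77.6), Cx3cr1 (544.9 ± 57.6), Tmem119 (513.6 ± 56.8) and Fcrls (470.3 ± 87.4). Selplg stood at 291.3 ± 29.3, Itgam at 192.4 ± 22.9, Siglech at 182.6 ± 18.6 and Aif1 at 156.1 ± 27.9 normalised reads per kb. The steps from Csf1r to P2ry12, from Fcrls to Selplg and from Selplg to Itgam were wider than the larger SD of the pair, and the other neighbours in this order lay within it.

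The comparison of WT mice at 4 and 2 months asks how the genes stand after a longer time on the diet. P2ry12, Cx3cr1, Fcrls, Itgam and Selplg were higher at 4 months, by 14.1% to 23.6%. Tmem119, Csf1r, Siglech and Aif1 did not pass the test, with differences of 0.08 to 0.20 on the log2 scale. Thus 5 of the 9 genes rose and 0 fell, where 8.77% of the 15159 genes tested passed in either direction. Without WT replicate 37 at 2 months 5 of the 9 rose and 2846 genes passed in place of 1330, and without WT replicate 12 at 4 months 4 rose and 772 passed. The median difference was 0.196 over the 9 genes and 0.003 over all genes tested, and all 9 differences were positive against 50.9% of all genes. Calls are limma tests at an adjusted p of 0.05 over all genes.

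Among the receptors, P2ry12 encodes the G-protein-coupled ADP receptor that steers microglial processes towards released nucleotides. Its level in WT mice was 10.19 in the lowest, 10.42 in the median and 10.46 in the highest library at 2 months, and 10.39, 10.60 and 10.77 at 4 months. Of the 10 libraries at 4 months, 9 lay above every library at 2 months. The difference was 0.26 (SE 0.05, limma adjusted p = 0.0066), a rise of 19.7%.

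Cx3cr1 encodes the receptor for fractalkine, the Cx3cl1 product displayed by neurons. It ran from 10.89 to 11.22 at 2 months with a median of 11.06, and from 11.12 to 11.37 at 4 months with a median of 11.31. The ranges overlapped, with 7 libraries at 4 months above all at 2 months, and the difference was 0.21 (SE 0.05, limma adjusted p = 0.0086). Csf1r, the receptor tyrosine kinase for CSF1 and IL-34 on which microglial survival depends, had medians of 11.92 and 12.01, and its difference of 0.08 (SE 0.03, limma adjusted p = 0.13) did not pass.

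Fcrls encodes an Fc receptor-like scavenger receptor found on mouse microglia. It had the largest of the 9 differences, 0.31 (SE 0.05, limma adjusted p = 0.0023), from 9.91, 10.06 and 10.22 (lowest, median, highest) at 2 months to 10.19, 10.34 and 10.57 at 4 months. The highest library at 2 months overlapped the lowest at 4 months, and 9 of the 10 later libraries lay above all earlier ones. Siglech, a sialic acid-binding lectin that signals through the adaptor Tyrobp, had medians of 9.12 and 9.22, and its difference of 0.08 (SE 0.06, limma adjusted p = 0.39) did not pass.

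Itgam encodes CD11b, the alpha chain of complement receptor 3. Its level was 9.53, 9.70 and 9.79 (lowest, median, highest) at 2 months and 9.82, 9.97 and 10.04 at 4 months. Here the groups did not overlap, and the difference was 0.26 (SE 0.04, limma adjusted p = 0.0020). The share of all genes tested that did not overlap between these groups was not counted. Selplg, the P-selectin ligand PSGL-1, ran from 9.99 to 10.38 at 2 months and from 10.15 to 10.56 at 4 months, with medians of 10.11 and 10.32. Its ranges overlapped widely, and its rise of 0.19 (SE 0.06, limma adjusted p = 0.042) was past the threshold in 10 of 29 alternative settings.

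Tmem119 encodes a transmembrane protein used to tell resident microglia from infiltrating macrophages. It ran from 9.89 to 10.38 at 2 months (median 10.08) and from 10.10 to 10.42 at 4 months (median 10.26), a difference of 0.12 (SE 0.06, limma adjusted p = 0.17) that did not pass. Aif1, the actin-bundling protein IBA1, ran from 7.34 to 8.04 (median 7.59) and from 7.55 to 8.10 (median 7.89), a difference of 0.20 (SE 0.10, limma adjusted p = 0.22) that did not pass either.

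**Figure D1:**
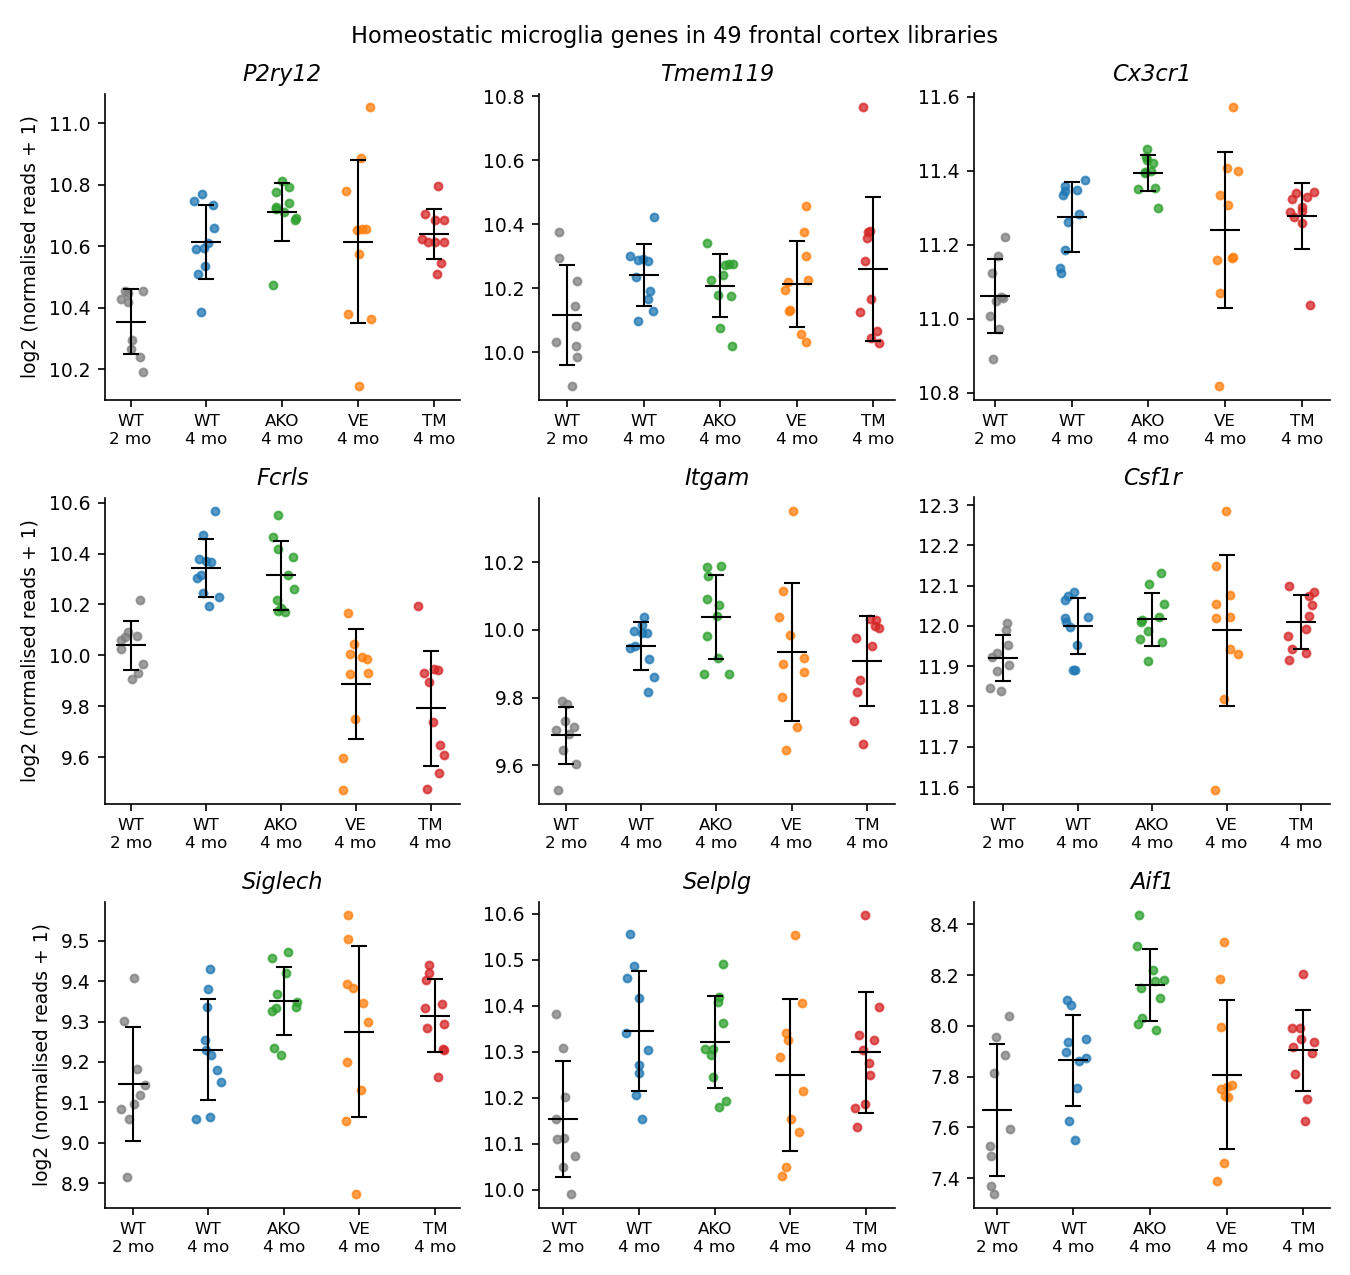
Level of each gene, log2(normalised reads + 1), in the 49 libraries by group (mo, months on the high fat diet); points are libraries, and bars are the mean and SD. The y axes do not start at 0. Itgam in WT mice does not overlap between 2 and 4 months, and Fcrls in the VE group lies below every WT library at 4 months. The share of all genes that separate in this way was not counted.

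The WT libraries at 4 months carry title numbers in 2 runs, 11 to 15 and 21 to 25, whose meaning the labels leave out. All 9 genes had higher means in the libraries numbered 11 to 15, by 0.05 (Itgam) to 0.18 (P2ry12) on the log2 scale. With those 5 libraries alone against WT at 2 months, 4 of the 9 genes rose and the median difference was 0.246. With the libraries numbered 21 to 25 alone, 0 of the 9 passed with limma, the median difference was 0.148, and 36 genes passed in all. There Itgam differed by 0.24 (limma adjusted p = 0.064), Fcrls by 0.26 (0.055), P2ry12 by 0.17 (0.16), Cx3cr1 by 0.18 (0.12) and Selplg by 0.15 (0.26). That comparison has fewer libraries, and whether the runs differ in time or handling was not tested.

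The other gene lists of the pathway and of other cell types were read against the same comparison. Of 32 other homeostatic microglia genes, 12 rose and 0 fell (median difference 0.202), among them Cst3, the protease inhibitor cystatin C (0.24, SE 0.05), and Olfml3 (0.30, SE 0.07). None of the 15 microglial transcription factors tested passed with limma (0 rose, 0 fell, 6 at an unadjusted p under 0.05, median 0.104). Among 18 ligands and partners tested, 3 rose and 1 fell. The TGF-beta receptor Tgfbr2 rose by 0.31 (SE 0.05) and Lcp1, an actin-bundling protein of leukocytes, by 0.22 (SE 0.06). Cx3cl1, the ligand of Cx3cr1, fell by 0.24 on the log2 scale (SE 0.05).

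Disease-associated microglia genes moved upwards in the same comparison. Of the 21 tested, 7 rose and 0 fell (median 0.283), including Axl (0.22, SE 0.05), Apoe (0.28, SE 0.06) and Cd63 (0.29, SE 0.07). Axl is a receptor tyrosine kinase that binds dying cells through bridging proteins, Apoe a lipid carrier that astrocytes also make in quantity, and Cd63 a tetraspanin of late endosomes.

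Markers of other cell types moved in the same comparison. Among astrocyte markers 7 of 14 rose (median 0.152), with Gja1 (0.28, SE 0.05), S100b (0.18, SE 0.04) and Aqp4 (0.34, SE 0.08) first by p. Endothelial markers rose in 4 of 12 (median 0.240), including Pecam1 (0.26, SE 0.06), Cdh5 (0.24, SE 0.06) and Tek (0.32, SE 0.09). Of the neuron markers 0 of 14 rose and 2 fell, Tubb3 (-0.14) and Slc17a7 (-0.20). Of the oligodendrocyte markers 1 of 15 rose (Opalin 0.57, SE 0.17; list median 0.270), 1 border-associated macrophage marker of 10 (Cd209f 0.83, SE 0.25; list median 0.064) and the 1 erythroid marker tested (Alas2 0.53, SE 0.17). Lists for neutrophils and monocytes (3 tested), lymphocytes (1), striatal projection neurons (10), olfactory tissue (7) and choroid plexus (7) had 0 calls with limma, with medians of 0.145, 0.618, 0.404, 0.925 and 0.650. The part of any of these cell types in the differences of the 9 genes was not tested.

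The libraries labelled AKO were set beside WT at 4 months, under the same diet. As they hold Iapp reads, the comparison is one of libraries with that label and not of a shown loss of amylin. None of the 9 genes passed (0 with limma-trend and 0 with limma-voom, where 0.790% of the 15185 genes tested passed). At an unadjusted p under 0.05, 4 genes were higher (Aif1, Cx3cr1, Siglech and P2ry12), as were 6.91% of all genes tested. The median difference was 0.086 over the 9 genes and 0.005 over all genes. It was 0.008 with the WT libraries numbered 11 to 15 and 0.112 with those numbered 21 to 25, where P2ry12 differed by 0.01 and 0.19.

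Aif1 had the largest difference, 0.30 (SE 0.08, limma adjusted p = 0.069), a ratio of 1.23. In the libraries labelled AKO it ran from 7.98 to 8.44 with a median of 8.17 (against 7.55, 7.89 and 8.10 in WT), and 7 of the 10 lay above every WT library. Its adjusted p ranged from 0.050 to 0.61 over 33 alternative settings, and it passed in 1 of them, the fit without WT replicate 11. Cx3cr1 ran from 11.30 to 11.46 (median 11.40) in the libraries labelled AKO, with 7 libraries above every WT library, and a difference of 0.12 (SE 0.04, limma adjusted p = 0.13). Siglech differed by 0.12 (SE 0.05, limma adjusted p = 0.29) and P2ry12 by 0.10 (SE 0.05, limma adjusted p = 0.36). The remaining genes differed by -0.03 (Tmem119, Fcrls), -0.02 (Selplg), 0.02 (Csf1r) and 0.09 (Itgam), with 95% intervals that together reached from -0.14 to 0.18.

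In the same comparison 0 of 32 other homeostatic genes passed with limma (7 at an unadjusted p under 0.05, median 0.049). Of the disease-associated genes 1 of 21 fell, Ch25h, a cholesterol hydroxylase (-1.72, SE 0.35). Ch25h had few reads, from 1 to 65 per library over all groups, so the size of its fall is uncertain. All 15 oligodendrocyte markers had lower means (median -0.173), 14 of them at an unadjusted p under 0.05, and Mobp and Cldn11 fell (-0.40 and -0.27). The astrocyte connexin Gjb6 fell by 0.36 (1 of 14). All 10 striatal projection neuron markers had higher means (median 0.386), with 0 calls and 0 at an unadjusted p under 0.05. The part of these cell types in the values of the 9 genes was not tested. As Iapp reads do not show the loss that the label describes, the direction is that of the libraries labelled AKO relative to WT.

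Mice with the human amylin transgene differed from WT at 4 months in Fcrls. In the VE group Fcrls ran from 9.47 through a median of 9.96 to 10.17, and in the TM group from 9.48 through 9.82 to 10.19. WT mice at 4 months stood at 10.19, 10.34 and 10.57 (lowest, median, highest). Every VE library lay below every WT library, and 9 of 10 TM libraries did, the exception being TM replicate 21. How many of all genes tested separate from WT in this way was not counted. Fcrls fell by 0.46 in VE (SE 0.07, limma adjusted p = 0.0011; 0.728 of the WT level) and fell by 0.55 in TM (SE 0.08, limma adjusted p = 8.2e-05; 0.681 of the WT level).

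Fcrls was the 1 gene of the 9 to pass in VE (6.20% of 15129 genes tested passed) and the 1 to pass in TM (13.1% of 15225). The TM against WT comparison was added after the levels had been seen, and both comparisons use the same WT libraries. The other 8 genes differed by -0.10 (Selplg) to 0.04 (Siglech) in VE, with 95% intervals that together ran from -0.28 to 0.20. In TM they differed by -0.05 (Selplg) to 0.08 (Siglech), with intervals from -0.17 to 0.21. Median differences over the 9 genes were -0.028 in VE and 0.008 in TM.

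**Figure D2:**
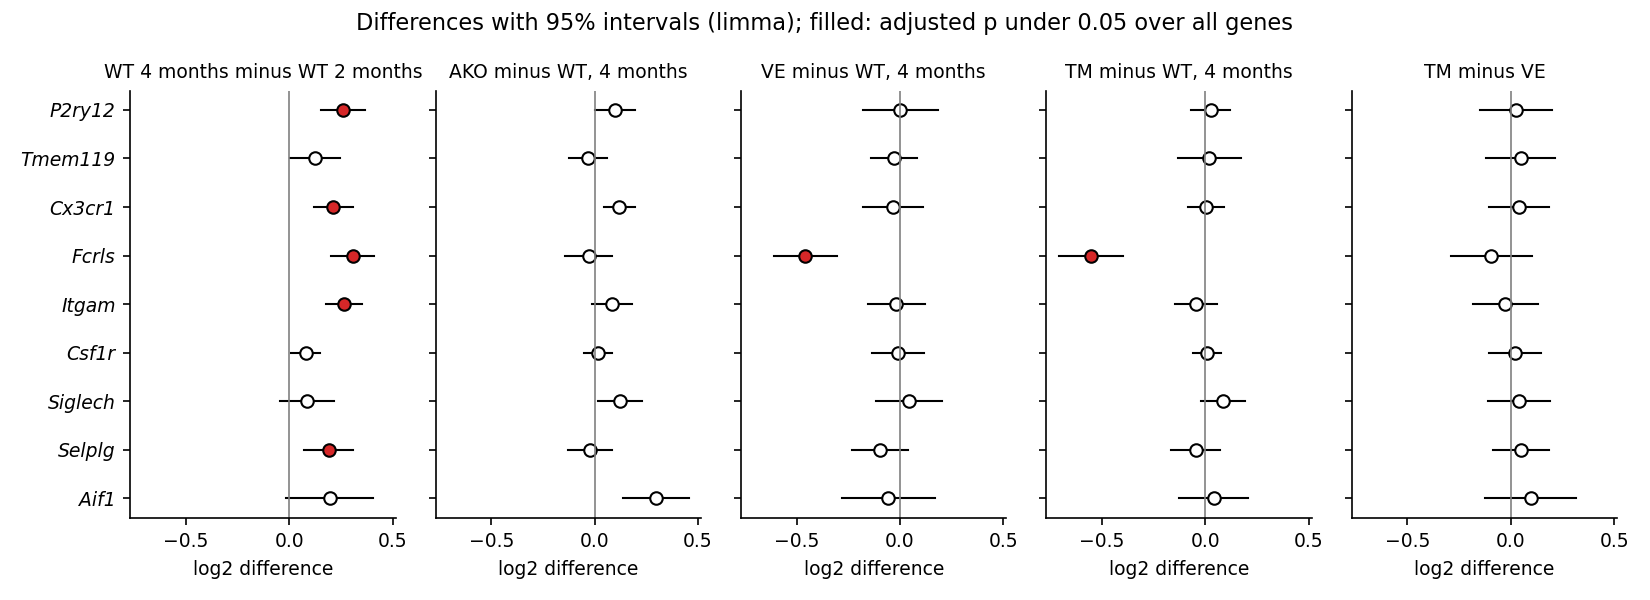
Difference in level (log2, x axis) of each gene in 5 comparisons, with 95% intervals from limma; filled points passed at an adjusted p of 0.05 over all genes tested. There are 5 that pass between WT at 4 and 2 months, and Fcrls alone passes in VE and in TM against WT at 4 months.

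Set against the other genes of the same library, Fcrls stood 0.155 ± 0.107 (SD, n = 10) above the mean log2 level of the other 8 genes in WT at 4 months. In VE this value was -0.278 ± 0.147, and in TM it was -0.410 ± 0.199. The lowest WT library at 4 months was at 0.013 and the highest transgenic library at -0.086, so the groups did not overlap on this scale. WT at 2 months (0.025 ± 0.122, n = 9) and the libraries labelled AKO (0.040 ± 0.111) lay between, with their lowest libraries at -0.103 and -0.096. These values describe a gene singled out after its values were seen and carry no test.

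**Figure D3:**
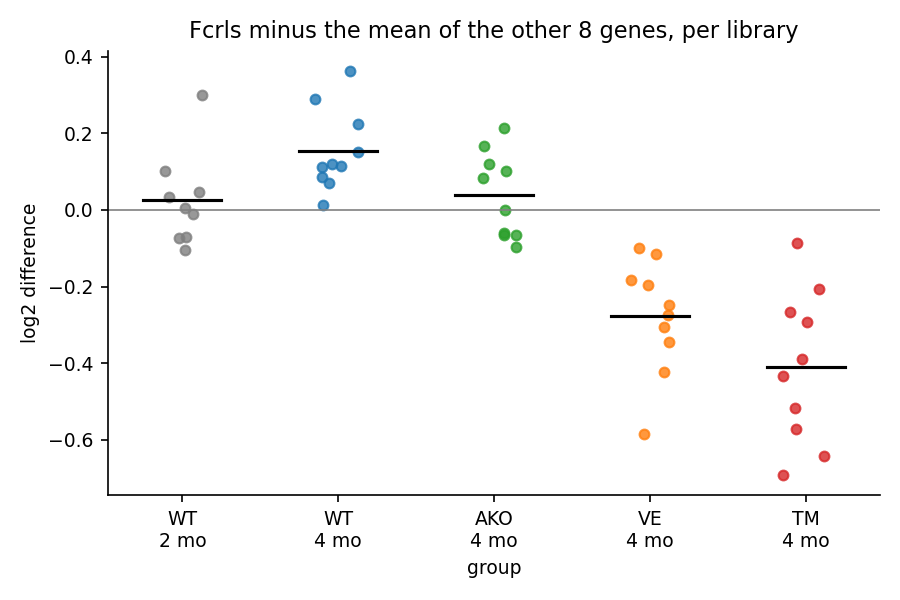
Fcrls minus the mean of the other 8 genes in each library (log2 difference, y axis) by group (mo, months on the high fat diet); points are libraries and bars are group means. All VE and TM libraries lie between -0.693 and -0.086, and all WT libraries at 4 months lie at 0.013 or higher.

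The fall of Fcrls held in each of 30 alternative settings in VE (differences of -0.51 to -0.41, limma adjusted p of 3.4e-05 to 0.034) and in TM (-0.60 to -0.50, limma adjusted p of 6.6e-07 to 0.0058). Within the WT libraries numbered 11 to 15 the difference was -0.51 in VE and -0.60 in TM, and within those numbered 21 to 25 it was -0.41 and -0.50. Genotype, injection and any difference in strain between these mice and WT cannot be told apart. Of the genes tested within 1 Mb of Fcrls, 1 of 23 passed in VE (Mef2d, 0.15 higher) and 2 of 24 in TM (Crabp2, which fell by 0.67, and Mrpl24, which fell by 0.19).

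Some genes of related lists changed in the transgenic mice, where 6.20% of all genes tested passed in VE and 13.1% in TM. Olfml3, named above, fell by 0.32 in VE (SE 0.08) and fell by 0.31 in TM (SE 0.09), and Mertk, a receptor for apoptotic cells, rose by 0.32 (SE 0.07) and 0.31 (SE 0.10). In all, 1 of 32 other homeostatic genes rose and 3 fell in VE (Cst3 at -0.21 among them), and 1 rose and 1 fell in TM. The receptor Tgfbr2 fell by 0.23 in VE and fell by 0.22 in TM, the 1 call among 18 ligands and partners in each. Disease-associated genes fell in 2 of 21 in VE (Clec7a at -1.42 and Lyz2 at -0.49) and in 1 of 21 in TM (Cd52 at -0.77). Clec7a and Cd52 had few reads, 1 to 61 and 7 to 97 per library over all groups, and Lyz2 had 200 to 1108. Median and counts that follow are those of the disease-associated genes. Their median differences were -0.146 in VE and -0.108 in TM, with higher means in 3 and 6 of the 21. At an unadjusted p under 0.05 there were 5 in VE and 6 in TM.

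Other cell types moved with these differences. All 15 oligodendrocyte markers fell in VE (median -0.631), with Ugt8a and Trf at -0.79 and -0.68 on the log2 scale, and 14 of 15 fell in TM (median -0.440). Their mean level was 12.17 ± 0.08 in WT at 4 months, 11.51 ± 0.39 in VE and 11.71 ± 0.27 in TM (SD, n = 10). Striatal projection neuron markers had 0 calls, but all 10 had lower means in VE (median -0.754) and in TM (median -0.777). At an unadjusted p under 0.05 there were 2 of them in VE and 4 in TM. Their mean level was 11.5 ± 0.84 in WT at 4 months, 10.67 ± 1.17 in VE and 10.70 ± 1.03 in TM (SD, n = 10). Endothelial markers fell in 2 of 12 in VE (Tek -0.35, Pecam1 -0.25) and in 3 of 12 in TM (Tek -0.50, Cdh5 -0.24, Ly6c1 -0.37). Border-associated macrophage markers had 0 calls in either comparison with limma (0 of 10 in VE and 3 of 12 in TM at an unadjusted p under 0.05), with mean levels of 5.28 to 6.13 in WT, 5.17 to 6.27 in VE and 4.82 to 6.05 in TM. The neutrophil marker S100a9 fell in TM (-1.86, SE 0.53, limma adjusted p = 0.023) and was at -1.30 in VE (limma adjusted p = 0.13). Astrocyte markers had 1 rise in VE and 1 in TM, against list medians of -0.084 and -0.087, with higher means in 2 of 14 in each. Erythroid markers had 1 rise in VE and 1 in TM (2 tested, medians 0.971 and 1.254). In TM 1 of 14 neuron markers rose (median 0.039). Of 7 olfactory markers 1 rose in TM (Gng13, 0.27), while the others had lower means (list median -0.911). The part of any of these cell types in the level of Fcrls was not tested.

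Tamoxifen against vehicle within the transgenic mice is meant to set the induced against the uninduced transgene, whose own transcript was not analysed here. No mice given tamoxifen without the transgene were analysed, so the drug and any induction cannot be told apart. None of the 9 genes passed, as 0% of the 15270 genes tested did with limma-trend, and 0 with limma-voom. At an unadjusted p under 0.05 there were 0 of the 9, against 3.29% of all genes. Differences ran from -0.10 (Fcrls, SE 0.09) to 0.10 (Aif1, SE 0.11), with a median of 0.039. The 95% interval was -0.29 to 0.10 for Fcrls, -0.12 to 0.32 for Aif1, and -0.15 to 0.20 for P2ry12, so changes of that size remain within the error of these libraries.

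Against WT at 2 months, the groups at 4 months can be set side by side, with the same 9 WT libraries in each. In the libraries labelled AKO 8 of the 9 genes rose (17.0% of 15300 genes passed), with Aif1 0.49 (SE 0.09), P2ry12 0.36 (SE 0.05), Itgam 0.35 (SE 0.05), Cx3cr1 0.33 (SE 0.04), Fcrls 0.28 (SE 0.05), Siglech 0.21 (SE 0.06), Selplg 0.17 (SE 0.05) and Csf1r 0.10 (SE 0.03) higher. Csf1r was past the threshold in 10 of 28 alternative settings (not with limma-voom) and Selplg in 19. Tmem119 differed by 0.09 (SE 0.06, limma adjusted p = 0.28). P2ry12, Cx3cr1 and Itgam did not overlap between these groups, and the share of all genes tested that did not overlap was not counted. Without WT replicate 37 at 2 months 8 of the 9 rose and 4215 genes passed in place of 2598. In the comparison with all libraries 16 of 32 other homeostatic genes rose and 0 fell, and 7 of 14 neuron markers fell. All 10 striatal projection neuron markers had higher means there (median 0.816), 9 of them at an unadjusted p under 0.05, with 0 calls.

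In TM 3 of the 9 genes rose (8.05% of 15326 genes passed), P2ry12 by 0.28 (SE 0.05), Cx3cr1 by 0.22 (SE 0.04) and Itgam by 0.22 (SE 0.05). The difference of Fcrls was -0.25 (SE 0.08, limma adjusted p = 0.052), below WT at 2 months, and it passed in 6 of 27 alternative settings, limma-voom among them. In VE 0 of the 9 passed with limma-trend and 0 with limma-voom (1.79% of 15214 genes passed), and 3 were higher at an unadjusted p under 0.05 (8.26% of genes), P2ry12 at 0.26, Itgam at 0.25 and Cx3cr1 at 0.18. Fcrls differed by -0.15 in VE (SE 0.08, limma adjusted p = 0.33).

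The order of group means shows the same values across the study. WT at 2 months was lowest for 8 of the 9 genes, and TM was lowest for Fcrls. The libraries labelled AKO were highest for P2ry12, Cx3cr1, Itgam, Csf1r, Siglech and Aif1, WT at 4 months for Fcrls and Selplg, and TM for Tmem119. Most neighbours in these orders lay closer than the larger of their SDs. Steps beyond that SD were WT at 2 months to the next group for P2ry12 and Itgam, TM to AKO for Cx3cr1 and Aif1, and WT at 2 months to AKO for Fcrls.

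Libraries of the VE group varied most for all of the 9 genes but Tmem119 and Fcrls. The SD of Tmem119 was 0.2255 in TM and 0.135 in VE, and that of Fcrls was 0.2259 and 0.2154. The spread over all genes was not compared between groups. The SD over libraries had a median of 0.211 over the 9 genes in VE, against 0.099 to 0.132 in the other groups. VE replicate 3 was the lowest of its group for 5 of the genes (P2ry12, Cx3cr1, Itgam, Csf1r and Siglech), and VE replicate 41 was the highest for 8 (all but Siglech). P2ry12 was at 10.15 in VE replicate 3 and 11.05 in VE replicate 41, beyond the range of WT at 4 months at both ends. VE replicate 3 had the lowest depth of its group (29.8 M reads) and the lowest neuron marker level (14.76), and VE replicate 41 the highest depth (56.5 M reads). In VE replicate 3 the astrocyte marker level was the highest of the group (13.10), and the olfactory marker level was 11.12 against a group median of 7.79. Border-associated macrophage (5.17), neutrophil and monocyte (2.52), lymphocyte (1.88), erythroid (5.11) and choroid plexus markers (4.30) were at their lowest there. The part of these contents in the values of the 9 genes was not tested. Without VE replicate 3 the comparison with WT at 2 months called 2 genes, P2ry12 and Itgam.

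On deviations from group means, the 9 genes tended to vary together from library to library. The deviations were pooled over the groups without scaling, so the VE libraries weigh most for all genes but Tmem119 and Fcrls, where the TM libraries do. Values of r within single groups were not computed. Over 36 pairs, Pearson's r of the deviations from group means ran from 0.027 to 0.729 with a median of 0.458 (49 libraries, which share their scaling to depth). P2ry12, Cx3cr1 and Csf1r formed the closest group, with r of 0.729 (P2ry12 and Cx3cr1), 0.728 (P2ry12 and Csf1r) and 0.724 (Cx3cr1 and Csf1r). Csf1r followed the mean of the other genes most closely (r = 0.863), and Fcrls (0.528) and Tmem119 (0.295) the least. Tmem119 had r of 0.027 with Cx3cr1, 0.032 with Siglech and 0.098 with P2ry12. Its highest r was with Selplg, 0.57, which lies close to it on chromosome 5. TM replicate 21 was the highest library of its group for both Tmem119 and Selplg.

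**Figure D4:**
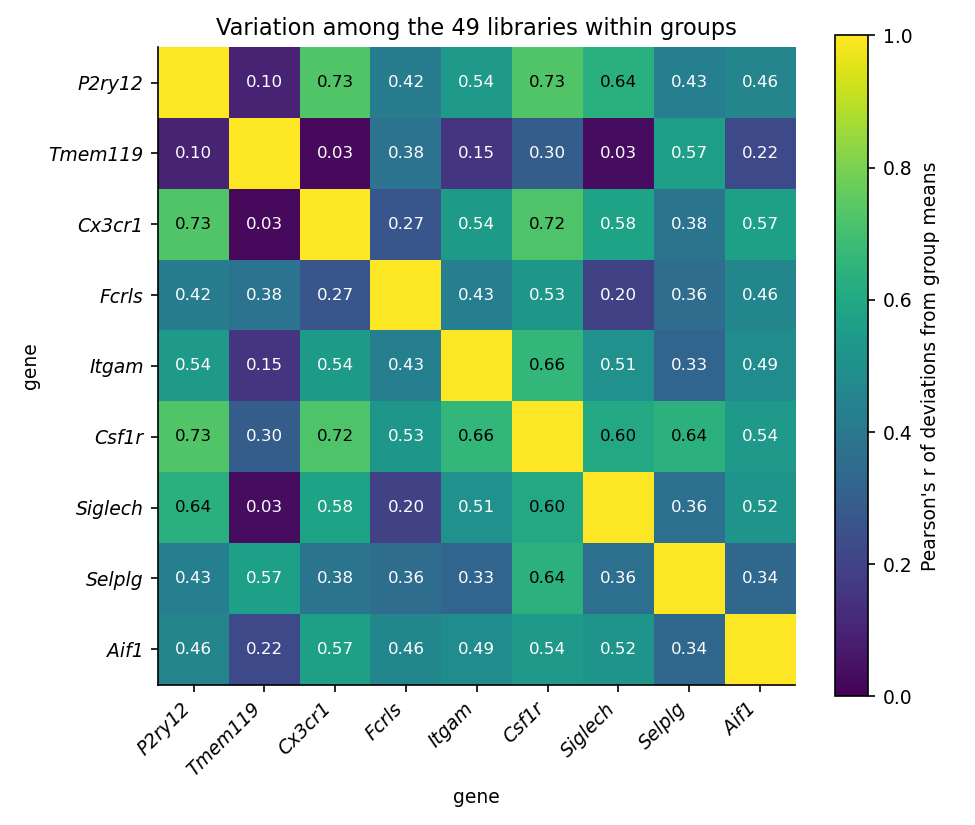
Pearson's r between each pair of genes over 49 libraries, computed on deviations from the group means (axes: genes; colour and printed value: r). Tmem119 has the weakest links, with r of 0.03 to Cx3cr1 and Siglech, and the block of P2ry12, Cx3cr1 and Csf1r has r of 0.72 to 0.73.

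Among the genes whose within-group pattern was most like the mean of the 9, of 14174 tested genes with a full symbol, were Emp2 (r = 0.766), Clu (0.765), Mfge8 (0.749), Laptm5 (0.745), Mpeg1 (0.707), Nagk (0.700) and Rps6ka4 (0.677). The median r over all candidates was 0.001. Of these, Emp2, Mfge8 and Mpeg1 also rose in WT between 2 and 4 months (by 0.23, 0.17 and 0.22), and Clu, Laptm5, Nagk and Rps6ka4 did not pass. The mean of the other homeostatic list followed the 9 genes with r = 0.536, endothelial markers with 0.507, oligodendrocyte markers with 0.333, disease-associated genes with 0.027 and astrocyte markers with -0.016. Choroid plexus markers had r of 0.346, striatal projection neuron markers 0.305, olfactory markers -0.271 and Cd4, the 1 lymphocyte marker used, 0.399. Values for the remaining lists ran from 0.037 (neuron markers) to 0.261 (ligands and partners).

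Positions are those of GENCODE M21 (GRCm38). P2ry12 is at chr3:59216272-59262871 and Fcrls at chr3:87250758-87263738, both on the minus strand. Tmem119 (chr5:113793729-113800516) and Selplg (chr5:113818536-113832644) are minus-strand genes 18020 bases apart. Itgam (chr7:128062640-128118491) and Siglech (chr7:55768178-55778925) are on the plus strand. Cx3cr1 (chr9:119901616-120069879) and Aif1 (chr17:35170991-35176068) are on the minus strand and Csf1r (chr18:61100598-61132149) is on the plus strand.

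Some of these genes overlap others, and the use of strand in counting was not given in the sources used here. P2ry12 lies inside Med12l on the opposite strand with 9 shared exon bases, Csf1r shares 873 exon bases with Hmgxb3 on the opposite strand, and Cx3cr1 shares 78 with Gm33858. Itgam shares 3450 exon bases with Gm49368, a same-strand model for which no row was used here. The values of these 4 genes are uncertain to that extent. Med12l differed by -0.03 (SE 0.07, limma adjusted p = 0.81) in WT at 4 against 2 months, while P2ry12 rose. It rose by 0.17 in VE (SE 0.04) and by 0.22 in TM (SE 0.04) against WT at 4 months, where P2ry12 differed by 0.00 and 0.03.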

How the data were processed

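The authors deposited 1 table of log2 values with 24495 genes and 50 value columns, of which 1 matched no sample and was not used. Per the labels' protocols, total RNA of the frontal cortex went into TruSeq Stranded mRNA libraries; the aligner, counter, build and scaling were not given in the sources used here. Raising 2 to each deposited log2 value and subtracting 1 gave whole reads divided by a size factor (99.92% to 100.00% of values up to 200 reads lay within 0.1 of a whole number), so reads were recovered; 7 genes were left out and 27 symbols turned into dates were restored from gene IDs. The closest pair of replicates differed by a chi-square of 6.44 per gene, and none was treated as a duplicate.

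Each comparison was fitted on the deposited log2 values of its groups with limma-trend (limma 3.58.1, R 4.3.3) and robust shrinkage, two-sided, and p-values were adjusted by Benjamini-Hochberg over all genes tested. A gene was tested if, in a number of libraries equal to the size of the smaller group, it had 10 reads scaled to the median depth, and 15 reads overall. The script was tested on simulated data. Further steps used Python 3.11.15, pandas 2.3.3 and numpy 2.4.6.

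The 9 genes and the 15 other lists were chosen with earlier results of these data known. Named besides the 9 were the genes of each list that passed, at most 3 by smallest p, and the 8 genes most like the mean of the 9 by r. Some genes that this rule names are not reported here. Alternatives were limma-voom, no trend, 1 model of all libraries, a pseudocount of 10 in place of 1, other filters and scalings, single libraries left out, the runs of WT title numbers, and a replicate block; TM against WT at 4 months was added after the levels had been seen.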

Additional observations from a re-analysis of the deposited data

Results flagged for a closer look

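In 3 of the 45 gene and group combinations, 1 library lay apart from the rest of its group, with a gap to the next library that was large against the range of the group (Dixon's criterion). Chance alone gives about 1 in 20 such groups. P2ry12 was at 10.4731 in AKO replicate 15, with the next library at 10.69. That library also had the highest olfactory marker level (10.74) and the highest disease-associated gene level (9.44) of its group.

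TM replicate 21 stood apart for 2 genes in opposite directions. Tmem119 was at 10.7652 there (next library 10.38) and Cx3cr1 at 11.0366 (next library 11.26). It also had the highest level of border-associated macrophage markers (6.05) and the lowest of oligodendrocyte (11.07) and endothelial markers (9.61) in the TM group. Without it 5 genes passed against WT at 2 months in place of 3.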

How the results depend on the processing

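In WT at 4 against 2 months, 4 or 5 of the 9 genes rose under every alternative but 1: with the WT libraries numbered 21 to 25 alone, 0 passed. Leaving out single libraries gave 4 to 5 there (Selplg was lost in 13 of 19 fits), 0 to 1 for the libraries labelled AKO against WT at 4 months, 6 to 8 for them against WT at 2 months, 0 to 2 for VE and 3 to 5 for TM against WT at 2 months. VE against WT at 2 months called 3 genes in 1 model of all libraries. Fcrls passed in VE and TM against WT at 4 months in every alternative run. Calls over all genes moved more: with WT numbered 11 to 15 or 21 to 25 there were 162 and 396 in VE (938 with all) and 676 and 1240 in TM (1997 with all) against WT at 4 months. In 1 model of 49 libraries there were 848 in WT at 4 against 2 months (1330 otherwise), 50 for AKO against WT at 4 months (120) and 814 for VE against WT at 2 months (273). Single libraries also moved these counts by over 1.5 times. Without WT replicate 37 at 2 months there were 2846 in WT at 4 against 2 months, 4215 for AKO and 437 for VE against WT at 2 months (1330, 2598 and 273 with it). WT at 4 against 2 months had 772 without WT replicate 12 at 4 months, and 777, 805, 816 and 793 without WT replicates 32, 33, 34 and 35 at 2 months. VE against WT at 2 months had 178 and 157 without VE replicates 1 and 40, and 177, 126, 166 and 178 without WT replicates 33, 34, 35 and 40. AKO against WT at 4 months had 62 to 78 without AKO replicate 6, 8 or 13 or WT replicate 14 or 21, and 206 without AKO replicate 15; without AKO replicates 14 and 19 together it had 62, and AKO against WT at 2 months had 1585. Against WT at 4 months, VE had 1494 without VE replicate 3 and TM 3176 without TM replicate 9.

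The differences that changed sign were small, and none was a call. With WT numbered 11 to 15 they were Csf1r -0.0297 (AKO), P2ry12 -0.0901 and Siglech -0.0303 (VE), and P2ry12 -0.0656, Tmem119 -0.0334, Cx3cr1 -0.0311, Csf1r -0.0372 and Aif1 -0.0101 (TM). With WT numbered 21 to 25 they were Tmem119 0.0201, Fcrls 0.0194 and Selplg 0.0182 (AKO), and Tmem119 0.0243, Itgam 0.00825 and Csf1r 0.0344 (VE). P2ry12 in VE was -0.0017 with upper-quartile scaling and -0.0112 with quantile normalization. The cause of these changes was not tested. Single libraries left out gave ranges across 0 in VE against WT at 4 months for P2ry12 (-0.0478 to 0.0527), Cx3cr1 (-0.0721 to 0.0115), Itgam (-0.0642 to 0.0144) and Csf1r (-0.0441 to 0.0327). In TM against WT at 4 months the ranges were P2ry12 (-0.000171 to 0.0425), Tmem119 (-0.037 to 0.0447), Cx3cr1 (-0.0132 to 0.0306) and Csf1r (-0.00381 to 0.0189). In TM against VE they were P2ry12 (-0.0276 to 0.073), Tmem119 (-0.00883 to 0.0745), Cx3cr1 (-0.00779 to 0.0759), Itgam (-0.0594 to 0.0191), Csf1r (-0.0243 to 0.0525) and Siglech (-0.00455 to 0.072).

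The libraries labelled AKO and WT at 4 months share 5 title numbers. Deviations of libraries with the same number correlated at -0.29 to 0.138, above 0.1 in 2 of 5 pairs, and 1 of 5 libraries was closest to its own number, so the numbers were not taken as pairs. With a replicate block over these numbers 12 genes passed, against 13 without it, and 0 of the 9 in both; Csf1r was at -0.0319 in both. Depth limits the low end: Aif1 had 130 reads in its lowest library.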

Other observations

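The genes most like each of the 9 differed between members (within-group r over 49 libraries, a list made after the values were seen). Aif1 was closest to Fcer1g (0.628), and its r with Gpr34 was 0.624; both are known microglial genes. Fcrls was closest to Lhpp (0.682) and Olfml3 (0.655), the latter being the homeostatic gene that also fell in both transgenic groups. Tmem119 was closest to Banp (0.637), Anapc16 (0.611) and Hmox1 (0.596), the last of them the inducible haem oxygenase, followed by Nat14 (0.591) and C1qa (0.575).

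Between WT at 4 and 2 months, 10 of 84 genes tested within 1 Mb of Aif1, which lies in the major histocompatibility region, passed while Aif1 did not, where 8.77% of all genes passed. Of the 10, 7 rose and 3 fell (Gnl1 at -0.09, Tubb5 at -0.15 and 2310061I04Rik at -0.24). Those that rose include the class II genes H2-Aa (0.96, SE 0.26) and H2-Eb1 (0.80, SE 0.25), the complement gene C4b (0.65, SE 0.15) and the immunoproteasome subunit Psmb8 (0.39, SE 0.10). In TM against WT at 4 months H2-Aa fell by 0.88 and H2-Eb1 fell by 0.91, while Aif1 differed by 0.04. Between the same WT groups, 9 of 55 genes tested within 1 Mb of Itgam passed, where 8.77% of all genes passed. Of these, the integrin gene Itgax rose by 1.14 (SE 0.33) from a low level and Pycard rose by 0.48 (SE 0.12). The others that passed near Itgam fell.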
